A study of Homo sapiens with 8 samples.

Results

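Small nucleolar RNA host genes are long transcription units, most of them without a conserved protein product, that carry small nucleolar RNAs (snoRNAs) in their introns. They were compared between 4 wild-type and 4 DOT1L knockout samples of MDA-MB-231, a widely used cell line that grew from a human breast cancer of the triple-negative kind. The members were the rows of the deposited count table with a symbol of the form SNHG and a number, together with GAS5, ZFAS1, EPB41L4A-AS1 and DANCR, which gave 32 of 60646 genes. The knockout, labelled DOT1L/+, was made with a guide RNA against the first exon of DOT1L, which encodes the methyltransferase of histone H3 lysine 79. The labels do not give the edit, the number of edited alleles, or whether the cells came from 1 clone. Both groups were plated at the same density and harvested 1 day later with no further treatment, and ribosomal RNA was removed from the total RNA that was sequenced.

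Splicing releases the intron of a host transcript, the snoRNA is trimmed out of it and assembled with its core proteins, and the spliced exons remain as a second product. Box C/D snoRNAs guide 2′-O-methylation and box H/ACA snoRNAs guide pseudouridylation of ribosomal and spliceosomal RNA. Many host transcripts start with a run of pyrimidines, as the mRNAs of ribosomal proteins do, and are broken down by nonsense-mediated decay when they meet ribosomes. In breast cancer cells several of them, GAS5 and SNHG1 among them, have been studied as regulators of growth.

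The starts of 7 host genes are shown because the pyrimidine run at the start is what the family is known for. Each line gives 40 bases of the RefSeq promoter table (GRCh38.p14) on the strand of the gene, the RefSeq start being the base at position 21. Capitals mark the longest run of C and T that reaches to within 5 bases of the start. The first 5 hosts were lower in the knockout and hold a run of at least 5. SNHG11, which was also lower, and SNHG30, which was higher, hold none of that length. Hosts that did not pass are not shown, though SNHG4, SNHG12 and SNHG7 among them hold runs of 13, 12 and 11.
SNHG1 (chr11:62855866-62855905, minus strand): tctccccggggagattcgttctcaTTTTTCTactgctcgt
SNHG8 (chr4:118278742-118278781, plus strand): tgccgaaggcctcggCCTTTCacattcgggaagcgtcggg
SNHG17 (chr20:38435309-38435348, minus strand): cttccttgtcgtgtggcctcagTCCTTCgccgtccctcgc
SNHG5 (chr6:85678714-85678753, minus strand): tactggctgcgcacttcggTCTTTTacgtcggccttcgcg
SNHG29 (chr17:16438967-16439006, plus strand): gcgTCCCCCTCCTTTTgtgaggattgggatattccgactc
SNHG11 (chr20:38446634-38446673, plus strand): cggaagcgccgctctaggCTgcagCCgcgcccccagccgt
SNHG30 (chr17:35568094-35568133, plus strand): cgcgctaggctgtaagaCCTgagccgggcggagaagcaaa

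A promoter window of 300 bases (250 before the start and 50 after it) was matched for 28 of the 32 members, and SNHG6, SNHG9, SNHG15 and SNHG25 had no match. A pyrimidine run of at least 5 within 5 bases of the start was found in 19 of these 28 windows (67.9%), against 40.8% of 27305 genes in the same table. It was present in 9 of the 10 matched hosts that were lower in the knockout, in 8 of the 14 that did not pass the test and in 0 of the 2 that were higher. The windows follow RefSeq starts. For SNHG27, SNHG32, ZFAS1, SNHG12, SNHG20, GAS5 and SNHG14 the GENCODE start of the counted gene lies outside the window. For SNHG27, which was higher, the window ends at base 131764887 and the counted gene starts at base 131773302. In these hosts a run at the start of the counted gene was not tested. Nor was it tested in hosts whose GENCODE start lies inside the window but away from the RefSeq start. SNHG29, SNHG11, SNHG8, SNHG3, SNHG1 and SNHG17, all lower, are among them. For SNHG29 the counted gene starts at base 16438822, before the stretch shown above. The E-box CACGTG, a palindrome and so the same on both strands, occurred in 2 of the 28 windows (7.14%), those of SNHG7 and SNHG30, against 8.78% of all genes. Such matches describe the letters of the window only.

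Counts assigned to genes ran from 40103408 to 50031412 per sample. DOT1L had 115, 101, 103 and 118 CPM (counts scaled to library size) in wild-type replicates 1, 2, 3 and 5 and 85.3, 78.1, 83.2 and 92.3 CPM in knockout replicates 1, 2, 3 and 5, the order used throughout. The groups did not overlap, and DOT1L was lower by a log2 change of -0.37 ± 0.06 (SE; adjusted p = 2.83e-05, edgeR quasi-likelihood test with Benjamini-Hochberg adjustment, as for each adjusted p of a single gene here). All 8 markers of the MDA-MB-231 line reached a mean of 1 CPM, as did 6 of 10 luminal markers, 0 of 6 leukocyte markers and 2 of 8 fibroblast and endothelial markers. Among the luminal markers KRT8 (310 CPM in wild-type), KRT18 (288 CPM) and ERBB2 (86.9 CPM) were the most abundant, while ESR1, PGR and CDH1 were below 1 CPM in every sample. The summed level of the luminal markers lay at 660 to 736 CPM in wild-type and 883 to 1069 CPM in knockout samples, and that of the fibroblast and endothelial markers at 11.8 to 21.5 and 25.7 to 31.8 CPM. The part of these shifts in the results below was not tested. In such bulk RNA, fewer cells with a transcript and less of it per cell cannot be told apart. The labels do not say that samples came from separate cultures, so the spread behind each p-value is that between these 8 samples, and it may be technical.

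Of the 32 host genes, 30 passed the filter on low counts. In the knockout 12 of them were lower, 3 were higher and 15 did not pass the test at an adjusted p of 0.05. Of all 19877 tested genes 47.6% were called, 23.9% higher and 23.6% lower, so the 50% called among the hosts was near the background while their calls were split 12 lower to 3 higher. Calls were more frequent among abundant genes: the filter at a mean log2 CPM of 1 kept 13342 genes, of which 56.3% were called. It kept 26 of the hosts, of which 53.8% were called, 11 lower and 3 higher. In the main fit the median log2 change of the 30 hosts was -0.09, against 0.00 over all tested genes. Of 3274 other tested long non-coding genes, 21.5% were higher and 10.9% lower. The split moved with the scaling of the libraries: library totals gave 6 higher and 11 lower hosts (5905 and 3744 over all genes), and upper-quartile scaling gave 8 and 11 (6021 and 3705). Groups did not overlap in CPM for 15 of the 30 hosts, 12 lower and 3 higher (SNHG9, SNHG21 and SNHG30), against 43.4% of all tested genes, 22.1% lower and 21.3% higher.

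Summed over the members, host transcripts came to 2597 ± 84.7 CPM (SD, n = 4) in wild-type and 2228 ± 59.9 CPM (SD, n = 4) in knockout samples. They made up 0.250% to 0.257% of assigned counts in the wild-type and 0.219% to 0.234% in the knockout libraries, with no overlap. Per kilobase of annotated exon, SNHG29 was highest in both groups, with 168 CPM per kb in wild-type and 148 CPM per kb in knockout. SNHG1 moved from rank 2 of the 32 hosts to rank 7 on this scale, and SNHG8 from rank 4 to rank 9. The order was otherwise much alike, with a Spearman rho of 0.978 across the 32 genes, whose levels in both groups share gene length and annotation.

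**Figure D1:**
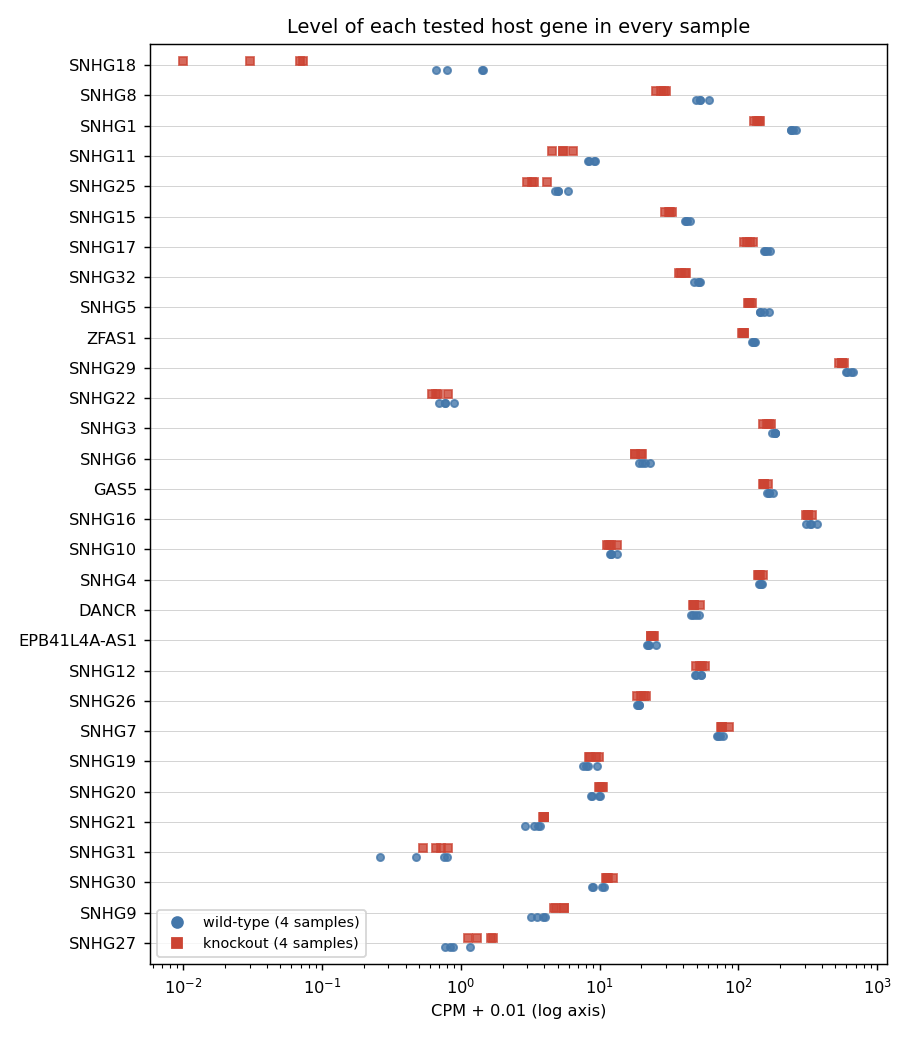
CPM plus 0.01 on a log axis for the 30 tested host genes, ordered by log2 change, with 4 wild-type samples (blue circles) and 4 knockout samples (red squares) on each row. The groups are apart for 15 hosts, 12 of them lower in the knockout, and the widest gap is that of SNHG18.

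GENCODE 29 places genes with a box C/D name (SNORD) but none with a box H/ACA name (SNORA) in 11 tested hosts. Of these 11, 6 were lower and 1 was higher. That is 63.6% called, against 47.6% of all tested genes and 56.3% of those kept by the filter on abundance. SNHG1 hosts a string of box C/D snoRNAs, SNORD22 and SNORD25 to SNORD28 among them. It had 240.3, 239.9, 262 and 249 CPM in wild-type and 139.7, 143, 129 and 137 CPM in knockout samples. All 4 knockout samples lay far below the wild-type ones, a log2 change of -0.86 ± 0.05 (SE; adjusted p = 5.06e-12). SNHG5, the host of SNORD50B, had 143, 154, 167 and 143 CPM in wild-type and 118, 125, 121 and 118 CPM in knockout samples. Its groups did not overlap either, and it was lower by a log2 change of -0.33 ± 0.05 (SE; adjusted p = 1.5e-05).

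SNHG29, with SNORD49A, SNORD49B and SNORD65 inside it, had 673, 609.7, 649.6 and 597 CPM in wild-type and 581, 556, 533 and 554 CPM in knockout samples. The lowest wild-type sample stood just above the highest knockout sample, and the log2 change was -0.19 ± 0.05 (SE; adjusted p = 0.00453). SNHG32, the host of SNORD48 and SNORD52, had 52.8, 48.2, 52.1 and 51.5 CPM in wild-type and 41.2, 37.6, 38.6 and 42.1 CPM in knockout samples. Its values were apart as well, with a log2 change of -0.36 ± 0.05 (SE; adjusted p = 6.48e-06). ZFAS1, which carries the SNORD12 family, had 125, 130.5, 132 and 127 CPM in wild-type and 106, 109, 108 and 109.8 CPM in knockout samples. It fell within narrow groups, by 0.25 ± 0.04 on the log2 scale (SE; adjusted p = 5.7e-05).

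SNHG18, the host of SNORD123, showed the widest difference and rests on few counts. It had 0.779, 1.43, 0.655 and 1.42 CPM in wild-type and 0.0204, 0.0632, 0 and 0.0595 CPM in knockout samples. In counts this was 33, 57, 31 and 65 against 1, 3, 0 and 3, or 186 against 7 in all. The ratio of the summed counts per library size was 29.5, with a 95% counting interval of 14.0 to 74.4 that covers counting error only. The fitted log2 change was -4.79 ± 0.47 (SE; adjusted p = 5.13e-08).

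SNHG30, the host of SNORD7, was the box C/D host that was higher. It had 10.4, 10.7, 9.02 and 8.74 CPM in wild-type and 12.5, 11.2, 11.3 and 11.5 CPM in knockout samples, with a small gap between the groups. Its log2 change of 0.26 ± 0.08 (SE; adjusted p = 0.0128) did not pass without wild-type replicate 5 (log2 change 0.21, adjusted p = 0.055).

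Of 11 tested hosts with SNORA names (box H/ACA) but no SNORD names, 5 were lower and 1 was higher. The share called, 54.5%, was near the 47.6% of all tested genes. SNHG8, the host of SNORA24, had 52.9, 52.9, 61.4 and 49.9 CPM in wild-type and 25.4, 28.97, 27.5 and 30.1 CPM in knockout samples. The knockout samples stood at about the same low level, and the log2 change was -0.96 ± 0.07 (SE; adjusted p = 2.58e-10). SNHG11, with SNORA60 and SNORA71E inside it, had 9.15, 9.29, 8.20 and 8.41 CPM in wild-type and 6.45, 5.47, 5.41 and 4.54 CPM in knockout samples. Every knockout sample was below every wild-type sample, with a log2 change of -0.68 ± 0.10 (SE; adjusted p = 1.01e-05).

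SNHG17, which lies near SNHG11 on chromosome 20 and carries SNORA71A to SNORA71D, had 161, 154, 157 and 168 CPM in wild-type and 121, 109, 116 and 128 CPM in knockout samples. SNHG15, the host of SNORA9, had 42.7, 41.8, 45.0 and 41.3 CPM in wild-type and 33.2, 31.8, 29.4 and 32.1 CPM in knockout samples. Both fell by 0.43 on the log2 scale with groups apart, SNHG17 with an SE of 0.05 and adjusted p = 3.81e-07 and SNHG15 with an SE of 0.05 and adjusted p = 7.57e-07.

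SNHG3, which carries SNORA73A and SNORA73B, had 183, 184, 175 and 184 CPM in wild-type and 165, 162, 149.7 and 171 CPM in knockout samples. The groups lay close together without overlap, and the log2 change of -0.16 ± 0.05 (SE; adjusted p = 0.00679) did not pass under library totals (-0.10, adjusted p = 0.0868) or upper-quartile scaling (-0.10, adjusted p = 0.0864). SNHG9, the host of SNORA78, was the H/ACA host that was higher. It had 3.89, 3.18, 4.02 and 3.55 CPM in wild-type and 5.51, 5.56, 4.81 and 4.66 CPM in knockout samples. The groups did not overlap, and the log2 change was 0.49 ± 0.11 (SE; adjusted p = 0.00107).

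SNHG25 and SNHG12 hold genes of both classes. SNHG25, with SNORD104 and SNORA50C, had 5.03, 5.03, 5.92 and 4.75 CPM in wild-type and 3.0004, 4.19, 3.26 and 3.33 CPM in knockout samples. It was lower without overlap, by a log2 change of -0.59 ± 0.12 (SE; adjusted p = 0.00032). SNHG12 had 54.1, 48.4, 53.4 and 49.3 CPM in wild-type and 57.8, 54.7, 49.7 and 53.1 CPM in knockout samples, values that overlap, with a log2 change of 0.07 ± 0.05 (SE; adjusted p = 0.318).

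In 6 tested hosts GENCODE 29 places no gene with an SNORD or SNORA name, though GAS5 is known as a host of box C/D snoRNAs. SNHG10, SNHG20, SNHG21 and SNHG22 hold genes of small Cajal body RNAs (SCARNA names), the relatives that modify spliceosomal RNA. None of the 6 was lower and 1, SNHG27, was higher, or 16.7% called, against 47.6% of all tested genes. SNHG27 is a scarce transcript, with 0.826, 1.15, 0.761 and 0.872 CPM in wild-type and 1.12, 1.31, 1.69 and 1.65 CPM in knockout samples. Its groups met, the highest wild-type sample lying above the lowest knockout sample, and the log2 change was 0.68 ± 0.19 (SE; adjusted p = 0.00628).

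GAS5, named for its accumulation in growth-arrested cells, had 166, 161, 179 and 167 CPM in wild-type and 164, 154, 152 and 152 CPM in knockout samples. Only knockout replicate 1 reached into the wild-type range. The log2 change of -0.11 ± 0.05 (SE; adjusted p = 0.0529) missed the threshold. It passed under 7 of 16 alternative settings, among them the fit with replicate number as a block term (adjusted p = 0.0251). SNHG6, the host of SNORD87, had 20.2, 19.4, 23.2 and 21.4 CPM in wild-type and 17.8, 19.9, 17.9 and 20.1 CPM in knockout samples. Its groups overlapped, and its log2 change of -0.15 ± 0.07 (SE; adjusted p = 0.0739) passed under 4 of the 16, the block among them (adjusted p = 0.0474). SNHG7, the host of SNORA17A and SNORA17B, had 73.7, 69.8, 77.3 and 71.5 CPM in wild-type and 85.9, 74.9, 76.8 and 76.0 CPM in knockout samples. With overlapping groups, its log2 change of 0.10 ± 0.05 (SE; adjusted p = 0.113) passed under 5 of the 16, again with the block among them (adjusted p = 0.0488). With these 3 added, the blocked fit called 4 hosts higher and 14 lower, against 52.7% of all genes called, 26.6% higher and 26.1% lower.

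The hosts that did not pass and had overlapping groups include several of the more abundant ones. SNHG16, the host of SNORD1A to SNORD1C, had 326, 309.5, 370.3 and 333 CPM in wild-type and 316, 317, 307 and 337 CPM in knockout samples. SNHG4, the host of SNORA74A, had 147, 141, 146 and 144 CPM in wild-type and 142, 138, 139.8 and 151 CPM in knockout samples. DANCR, an RNA named for its repression of differentiation and the host of SNORA26, had 46.9, 45.3, 51.9 and 49.2 CPM in wild-type and 47.8, 47.8, 47.0 and 52.5 CPM in knockout samples. The log2 changes of these hosts were -0.07 ± 0.05 (SE) for SNHG16, -0.02 ± 0.04 (SE) for SNHG4 and 0.01 ± 0.05 (SE) for DANCR, each smaller than the spread among replicates.

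EPB41L4A-AS1, the host of SNORA13, had 22.6, 22.4, 25.4 and 22.0 CPM in wild-type and 24.7, 23.6, 24.2 and 23.3 CPM in knockout samples. SNHG26, the host of SNORD93, had 19.1, 18.98, 18.6 and 19.3 CPM in wild-type and 21.6, 18.5, 19.9 and 21.0 CPM in knockout samples. SNHG10, with SCARNA13 inside it, had 11.9, 12.0, 13.4 and 12.0 CPM in wild-type and 13.2, 11.7, 11.2 and 12.2 CPM in knockout samples. In each of them the groups overlapped, for EPB41L4A-AS1 and SNHG26 through 1 sample. Wild-type replicate 3 of EPB41L4A-AS1 lay above every knockout sample and the other wild-type samples below. Knockout replicate 2 of SNHG26 lay below every wild-type sample and the other knockout samples above. SNHG20, with SCARNA16, had 8.71, 9.82, 8.88 and 10.05 CPM in wild-type and 10.5, 10.1, 9.97 and 10.5 CPM in knockout samples. SNHG19, the host of SNORD60, had 8.19, 8.01, 7.59 and 9.61 CPM in wild-type and 8.39, 9.41, 8.46 and 9.91 CPM in knockout samples. SNHG21, with SCARNA15, had 3.73, 3.38, 3.61 and 2.90 CPM in wild-type and 3.92, 3.94, 3.95 and 3.95 CPM in knockout samples. SNHG21 did not overlap between the groups but missed the threshold at a log2 change of 0.21 ± 0.11 (SE; adjusted p = 0.133). SNHG22 and SNHG31 stayed below 1 CPM in all 8 samples and did not pass. SNHG14, the long host of the imprinted SNORD115 and SNORD116 clusters, had 1 to 7 counts per library and was not tested, and SNHG28 had 0 counts in every library.

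Because large stretches of some chromosomes moved together in these samples, each host was also tested against the median log2 change of the 25 nearest tested genes on each side of it, with the hosts themselves left out of the median. On chromosome 4, 393 of 702 tested genes were lower and 90 higher. On chromosome 11, 514 of 1065 were lower and 180 higher. For SNHG8 on chromosome 4 the neighbour median was -0.68, and its change relative to it was -0.27 (adjusted p = 0.00243). For SNHG1 on chromosome 11 the neighbour median was -0.48 and the relative change -0.37 (adjusted p = 1.9e-06). SNHG27, also on chromosome 4, rose against a neighbour median of -0.78, a relative change of 1.47 (adjusted p = 2.93e-06).

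On this relative scale 15 hosts were lower and 6 higher, against 44.7% of 19604 genes called, 23% higher and 21.7% lower. Of the 12 lower hosts 11 remained lower and all 3 higher hosts remained higher. SNHG3 no longer passed, with a relative log2 change of -0.05 (adjusted p = 0.401) beside a neighbour median of -0.11. SNHG6, GAS5, SNHG16 and SNHG10 became lower, with relative log2 changes of -0.37, -0.16, -0.15 and -0.21. DANCR, EPB41L4A-AS1 and SNHG12 became higher, with relative changes of 0.17, 0.16 and 0.14. The adjusted p-values of these 7 ran from 0.000151 for SNHG6 to 0.0381 for SNHG12. The neighbour median was taken as a fixed value, so no adjusted p-value relative to neighbours includes its error.

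**Figure D2:**
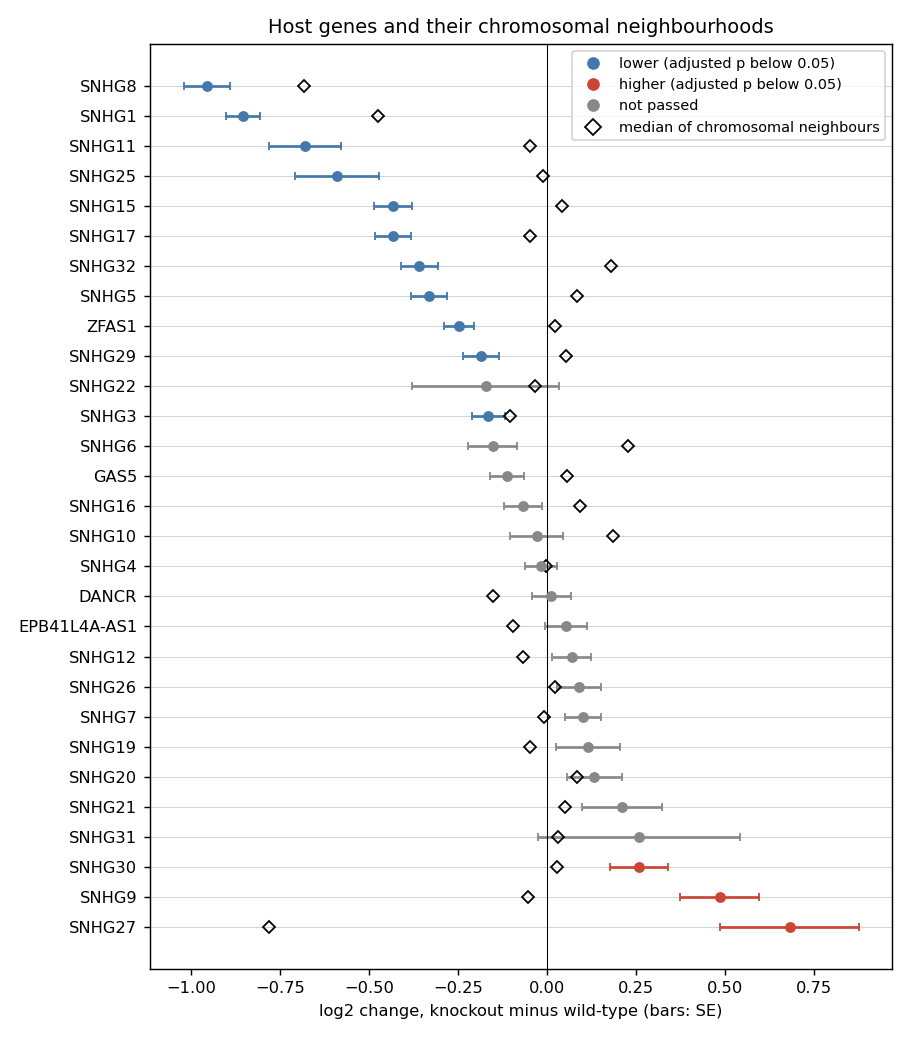
Log2 change, knockout minus wild-type, of 29 tested host genes (SNHG18 at -4.79 is left off), with bars of 1 SE, coloured by call, and the median log2 change of each host's chromosomal neighbours as an open diamond. The diamonds of SNHG8, SNHG1 and SNHG27 lie at -0.68, -0.48 and -0.78, while those of the remaining hosts lie closer to 0.

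With genes of small RNAs set aside, 12 tested hosts overlap no other annotated gene, and 8 of these were lower and 2 higher. That is 83.3% called, against 47.6% of all tested genes and 56.3% of those kept by the filter on abundance. The other 20 members overlap at least 1 gene that is not of a small RNA. As the strand setting of the counting is not given in the sources used here, reads of such pairs cannot be told apart with certainty. EPB41L4A, which encodes a membrane-skeleton protein and shares exon sequence on the other strand with EPB41L4A-AS1, rose by 4.20 on the log2 scale, from 0.489 to 8.98 CPM (adjusted p = 4.4e-15), while EPB41L4A-AS1 had a log2 change of 0.05 ± 0.06 (SE). DIPK1B, opposite SNHG7, fell by 2.17 on the log2 scale from 0.589 to 0.129 CPM (adjusted p = 1.38e-05). SEC14L1, which shares exons with SNHG20 on the same strand, was lower by a log2 change of -0.56 (adjusted p = 2.78e-08). RCC1, the nucleotide exchange factor of the GTPase Ran, shares exons with SNHG3 and was lower by -0.31 (adjusted p = 2.82e-05).

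There were 11 pairs of a host and a gene that starts within 1 kb on the other strand, and the partner was tested in 10. SNHG18 and SEMA5A, which encodes a transmembrane semaphorin, start 125 bases apart on chromosome 5 and moved in opposite directions. SEMA5A had 0.613, 0.526, 0.486 and 0.719 CPM in wild-type and 2.80, 2.80, 3.66 and 3.41 CPM in knockout samples, with no overlap, a log2 change of 2.43 ± 0.17 (SE; adjusted p = 2.49e-10). The bases between both starts are shown because the pair parts there. They were read from the RefSeq table on the plus strand of GRCh38.p14, from the base after the SEMA5A start to the first bases of SNHG18, with a run of 22 pyrimidines in capitals.
SEMA5A to SNHG18 (chr5:9546076-9546229): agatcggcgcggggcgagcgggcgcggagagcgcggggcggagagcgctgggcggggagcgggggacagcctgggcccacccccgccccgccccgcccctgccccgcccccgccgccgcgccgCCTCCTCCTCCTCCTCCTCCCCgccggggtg
The stretch is 85.7% G and C.

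The pair of ZFAS1 and ZNFX1, an antiviral helicase gene, also parted: ZNFX1 had 201, 191, 218 and 201 CPM in wild-type and 288, 272, 282 and 281 CPM in knockout samples. It was higher by a log2 change of 0.47 ± 0.05 (SE; adjusted p = 4.83e-08), and its exons overlap those of ZFAS1 on the other strand. ZBTB37, a zinc-finger gene that starts beside GAS5, had 32.9, 37.9, 33.0 and 37.9 CPM in wild-type and 39.7, 43.3, 49.2 and 49.6 CPM in knockout samples, a log2 change of 0.36 ± 0.07 (SE; adjusted p = 0.000599). SLC3A2, the heavy chain of amino acid transporters, moved the same way as SNHG1. It had 269, 237, 339.9 and 272 CPM in wild-type and 177, 164, 167 and 181 CPM in knockout samples, a log2 change of -0.70 ± 0.09 (SE; adjusted p = 0.000104), which did not pass relative to its neighbours (-0.24, adjusted p = 0.0579).

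RPS2, a ribosomal protein gene beside SNHG9, had 1083, 1039, 1227 and 1052 CPM in wild-type and 1067, 1093, 1052 and 1052 CPM in knockout samples, which overlap. BARD1 beside SNHG31, TRAF7 beside SNHG19 and ENSG00000267546 beside SNHG16 did not pass. ACAA2, a mitochondrial thiolase gene beside SNHG22, was lower by -0.25 (adjusted p = 0.00946), a call lost under library totals (-0.19, adjusted p = 0.0541). ENSG00000272668, beside SNHG28, was higher by a log2 change of 0.998 (adjusted p = 0.00015).

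The ratio of host to partner within each sample was compared for 9 pairs by a two-sided exact permutation test, chosen after the values were seen, which with 4 against 4 samples cannot go below p = 0.0286. The log2 ratio (pseudocount 0.5) changed by -7.25 for SNHG18 over SEMA5A, -0.72 for ZFAS1 over ZNFX1, -0.47 for GAS5 over ZBTB37, -0.49 for SNHG16 over ENSG00000267546 and 0.53 for SNHG9 over RPS2. Each of these 5 pairs was apart between the groups and reached that smallest exact p, which became 0.0514 after Benjamini-Hochberg adjustment over the 9. For SNHG1 over SLC3A2 the ratio changed by -0.17 with overlapping groups (exact permutation p = 0.0857, adjusted 0.129).

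**Figure D3:**
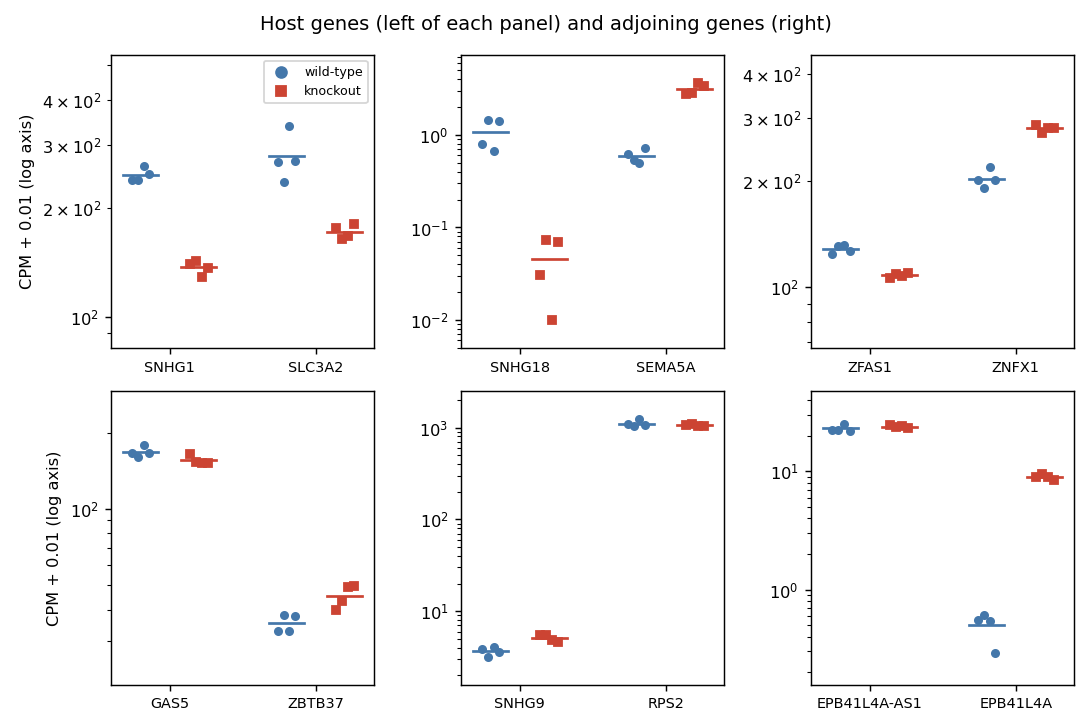
CPM plus 0.01 on log axes for 6 host genes (left in each panel) and the genes that start beside or overlap them (right), with 4 wild-type samples (blue circles), 4 knockout samples (red squares) and group means as bars. SNHG18 and SEMA5A part in opposite directions, SNHG1 and SLC3A2 are both lower in the knockout, and EPB41L4A is higher beside a level EPB41L4A-AS1.

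GENCODE 29 places 144 genes of snoRNAs and small Cajal body RNAs inside 30 of the hosts, 84 of them in SNHG14, and 127 of the 144 had 0 counts in all libraries. Outside SNHG14, 37 overlap an annotated exon of the host, of which 35 had 0 counts and none a mean of 10 counts. The other 23 lie within introns, of which 8 had 0 counts and 12 a mean of at least 10 counts. All 7 snoRNA genes of SNHG1 were at 0. The values of the 12 describe reads assigned to intronic spans, in which mature snoRNA and unspliced host RNA cannot be told apart.

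Sequences of 3 of these 12 are shown, 1 that was lower with its host and 2 whose log2 change lay farthest from that of the host among the 12. They come from GENCODE 29 transcripts (GRCh38). Capitals mark box C (TGATGA) and box D (CTGA) in the C/D class. The annotated span of SNORA74D, of the H/ACA class, holds no ACA in its last 8 bases and has no capitals.
SNORD12C in ZFAS1 (chr20:49278940-49279028, plus strand): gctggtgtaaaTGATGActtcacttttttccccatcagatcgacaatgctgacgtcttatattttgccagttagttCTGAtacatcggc
SNORD104 in SNHG25 (chr17:64146083-64146152, plus strand): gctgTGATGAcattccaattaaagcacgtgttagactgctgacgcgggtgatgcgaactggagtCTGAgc
SNORA74D in SNHG4 (chr5:139276180-139276320, plus strand): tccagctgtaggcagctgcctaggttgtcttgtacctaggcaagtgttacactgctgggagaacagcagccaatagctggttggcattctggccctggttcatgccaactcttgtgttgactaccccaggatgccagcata

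SNORD12C had 4.95, 4.71, 4.65 and 5.19 CPM in wild-type and 4.41, 4.32, 3.55 and 3.63 CPM in knockout samples. Its groups were apart, with a log2 change of -0.29 ± 0.11 (SE; adjusted p = 0.0298) beside -0.25 for ZFAS1. The call was lost under library totals (adjusted p = 0.0928), under upper-quartile scaling (0.0892) and without wild-type replicate 1 (0.0593), wild-type replicate 5 (0.0743), knockout replicate 3 (0.106) or knockout replicate 5 (0.0839). SNORA71B had 5.26, 4.23, 4.97 and 4.79 CPM in wild-type and 3.33, 3.24, 3.03 and 4.08 CPM in knockout samples, a log2 change of -0.49 ± 0.12 (SE; adjusted p = 0.00153) beside -0.43 for SNHG17. SNORA73B had 75.7, 77.0, 82.3 and 89.3 CPM in wild-type and 71.2, 76.0, 73.6 and 70.5 CPM in knockout samples, which overlap. Its log2 change was -0.16 ± 0.05 (SE; adjusted p = 0.0195) beside -0.16 for SNHG3. SNORA73B did not pass once wild-type replicate 5 (adjusted p = 0.0901) or knockout replicate 5 (0.0501) was left out. Its call was also lost under library totals (0.154), upper-quartile scaling (0.17), the filter at a mean log2 CPM of 1 (0.0542) and relative to neighbours (0.31).

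SNHG4 holds 2 of these snoRNA genes, which were not tested against each other. MATR3 (ENSG00000280987), which shares exons with SNHG4 on the same strand, spans both of them as well. It was lower by a log2 change of -0.66 (adjusted p = 0.0030), from 1.62 to 1.02 CPM. Its part in the snoRNA values was not tested. SNORA74D had 11.1, 10.2, 11.2 and 11.1 CPM in wild-type and 5.57, 7.07, 6.52 and 7.16 CPM in knockout samples, with no overlap and a log2 change of -0.73 ± 0.09 (SE; adjusted p = 6.18e-07). SNORA74A had 22.3, 22.5, 22.3 and 23.7 CPM in wild-type and 19.4, 26.3, 20.9 and 23.5 CPM in knockout samples, with overlapping groups. SNORD104 had 3.52, 2.98, 3.38 and 2.83 CPM in wild-type and 2.88, 3.50, 3.11 and 3.25 CPM in knockout samples, which overlap, while its host SNHG25 was lower. The log2 ratio of SNORD104 to SNHG25 changed by 0.60 and that of SNORA74D to SNHG4 by -0.72. Both reached the smallest two-sided exact permutation p of 0.0286, which became 0.171 after adjustment over 12 such ratios, of which none passed.

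SNORA26 in DANCR had 1.53, 1.227, 1.29 and 0.959 CPM in wild-type and 0.959, 0.779, 0.982 and 0.912 CPM in knockout samples. Its log2 change of -0.46 ± 0.19 (SE; adjusted p = 0.0501) passed under the replicate block (adjusted p = 0.0417). SNORD1B, SNORD12B, SNORD93, SNORD99 and SNORA13 had 0.142 to 2.48 CPM in wild-type samples and did not pass.

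**Figure D4:**
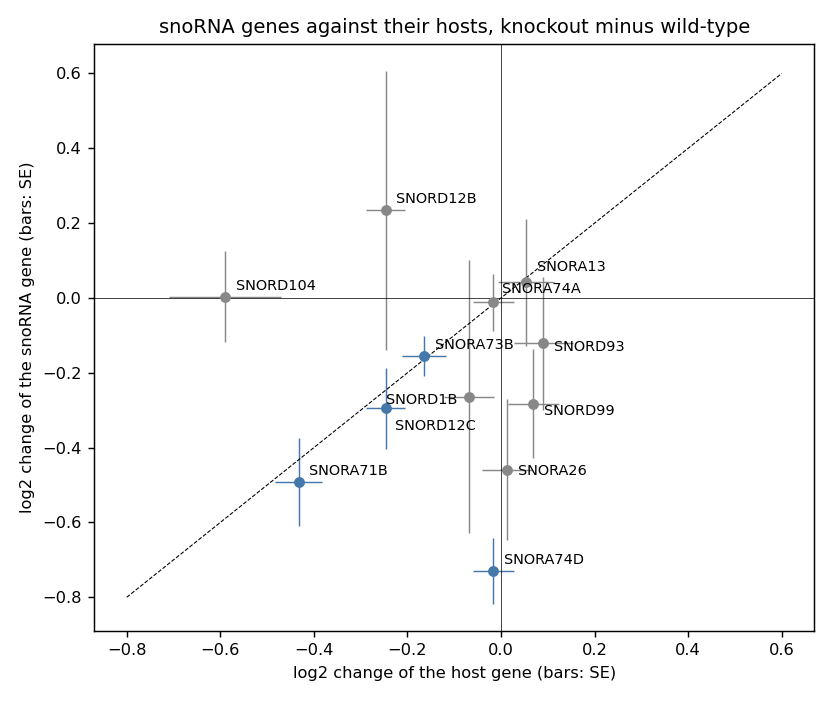
Log2 change, knockout minus wild-type, of the 12 snoRNA genes with a mean of at least 10 counts (vertical) against that of their hosts (horizontal), with bars of 1 SE and the line of equal change; blue points passed the test. SNORA71B, SNORA73B and SNORD12C lie near the line, SNORA74D lies below it and SNORD104 above it.

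The counts of the following lists stand beside the 47.6% of all tested genes that were called, 23.9% higher and 23.6% lower, with a median of 0.00. For genes kept by the filter on abundance the share was 56.3%, 28.1% higher and 28.2% lower. Of 8 core proteins of snoRNA particles, 4 were lower and 2 higher (median log2 change -0.11). GAR1, an H/ACA protein encoded on chromosome 4, was lower by -0.95 (adjusted p = 9.07e-09), and relative to its neighbours by -0.19 (adjusted p = 0.0504). The H/ACA proteins NHP2 and NOP10 were higher by 0.36 and 0.23 (adjusted p = 5.16e-06 and 0.000525), and neither passed relative to neighbours (0.07 and -0.09). On that scale 2 of the 8 were lower and 0 higher.

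Of 14 assembly and trafficking factors, 6 were lower and 1 higher (median -0.13), or 50% called, near the background. The replicate block called 8 lower and 1 higher, and 4 were called in all without knockout replicate 3. NAF1, which loads H/ACA particles and is also encoded on chromosome 4, was lower by -0.89 (adjusted p = 3.29e-08), and by -0.12 relative to its neighbours (adjusted p = 0.251). PIH1D1 and RUVBL2, parts of the R2TP chaperone complex that assembles box C/D particles, were lower by -0.43 (adjusted p = 4.07e-07) and -0.21 (adjusted p = 0.00166). Both also passed relative to neighbours, where 5 were lower and 1 higher.

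Of 10 processing and debranching factors, 2 were higher and 2 lower (median -0.07). The split was 3 higher and 0 lower under library totals and 2 and 0 under upper-quartile scaling. It also fell to 1 higher without wild-type replicate 1 and to 1 lower without knockout replicate 1 or 3. The deadenylase PARN, which trims snoRNA ends, was higher by 0.24 (adjusted p = 0.000327). The poly(A) polymerase TENT4B was lower by -0.18 (adjusted p = 0.0099), a call lost under library totals (adjusted p = 0.0707) and with another sign relative to neighbours (0.03). The intron-binding helicase AQR was higher by 0.15 (adjusted p = 0.0105), not without wild-type replicate 1 (adjusted p = 0.0539), and lower relative to its neighbours (-0.20, adjusted p = 0.00113).

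Of 18 nonsense-mediated decay factors, 7 were lower and 3 higher (median -0.02), and 9 and 3 relative to neighbours. The split turned over with the scaling, to 2 lower and 7 higher under library totals and 2 lower and 6 higher under upper-quartile scaling. It was 4 lower and 3 higher without knockout replicate 3, and 5 and 5 without wild-type replicate 3. UPF3B, which links the decay machinery to exon junctions, was lower by -0.48 (adjusted p = 4.82e-06), the endonuclease SMG6 was higher by 0.31 (adjusted p = 7.42e-06), and SMG9, a partner of the kinase SMG1, was lower by -0.25 (adjusted p = 0.000119). Of 20 other long non-coding RNAs on a comparison list, 6 were lower and 5 higher (median -0.03), or 55% called. The share was 32.4% over the other long non-coding genes, which were not matched to the list for abundance. It was 56.3% over genes of any kind kept by the filter on abundance. The scarcest of the 20 in wild-type samples, LINC00511, averaged 9.27 CPM there. For the list, upper-quartile scaling gave 5 lower and 7 higher, the neighbour scale 3 and 4, and leaving out knockout replicate 2 gave 5 and 3. The lower ones included CRNDE by -1.11 (adjusted p = 9.6e-11), LINC00472 by -0.63 (adjusted p = 6.28e-06) and MIR17HG, the host of the miR-17 cluster, by -0.51 (adjusted p = 1.54e-07).

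Protein-coding genes of translation and the nucleolus that also carry snoRNAs in their introns were called lower in 19 of 34 cases and higher in 0, and 15 did not pass (median -0.15). The replicate block, the filter at a mean log2 CPM of 1 and the fits without wild-type replicate 3 or knockout replicate 5 each called 2 higher. Library totals gave 14 lower and 2 higher, and upper-quartile scaling 13 and 2. Under the block 21 were lower and the 2 higher were RPS20 and RPL12 (adjusted p = 0.0152 and 0.0292), ribosomal protein genes named after their values were seen. The ribosomal protein genes RPS3, RPL27A and RPSA were lower by -0.56, -0.54 and -0.48 (adjusted p = 6.76e-09, 1.33e-08 and 6.09e-08). Relative to neighbours 17 were lower and 0 higher, RPS3 by -0.21 and RPL27A by -0.19 on chromosome 11, whereas RPSA did not pass (-0.03, adjusted p = 0.702). MYC, a transcription factor known to drive ribosome production, was lower by -0.63 ± 0.05 (SE; adjusted p = 3.12e-09), from 193 to 124 CPM. The part of MYC or DOT1L in the change of any host was not tested.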

How the data were processed

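Per the labels' protocols, total RNA was freed of ribosomal RNA, made into stranded libraries and sequenced on a NextSeq 2000. The authors deposited whole-number counts per Ensembl gene. Per the submitters' processing notes, the tools were STAR 2.6.0c, featureCounts, Subread 1.6.2, FastQC 0.11.7 and DESeq2 1.23.10 on hg38, and no parameters are named. A variance-stabilized table that the authors deposited is on the log2 scale and served 1 alternative. Not given in the sources used here are which annotation release and strand setting were used and how reads with several positions were handled. Of 60646 rows, 60333 matched a symbol and 58459 matched GENCODE 29 (GRCh38, the same build), which gave positions and inner snoRNA genes.

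Genes were tested in R 4.3.3 with edgeR 4.0.16 (filterByExpr, TMM scaling, robust quasi-likelihood fit, group as the single term), with Benjamini-Hochberg adjustment over 19877 genes. CPM use TMM factors. Each SE was derived as the absolute log2 change divided by the square root of the quasi-likelihood F statistic, not taken from the fit directly. Alternatives were library totals, upper-quartile scaling, DESeq2 1.42.0, a filter of 10 counts in total, a mean log2 CPM of at least 1, limma 3.58.1 on the transformed values, the replicate number as a block, each sample left out, and an offset for 25 neighbours on each side. No per-sample column was left unmapped, and no pair of replicates agreed within sampling noise (chi-square per degree of freedom 3.41 to 18.4).

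The numbers 1, 2, 3 and 5 occur in each group. Same-numbered samples deviated together from their group means, with correlations of 0.146 to 0.373 over 13344 genes whose mean log2 CPM was 1 or more (other pairs -0.302 to 0.0587), all above 0.1. The numbers were therefore taken as pairs in the blocked fit, from these correlations alone. The main fit and the exact permutation tests did not use the pairing. Over all 19877 tested genes the range was 0.0482 to 0.207, with 2 of 4 above 0.1.

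The members, lists and comparisons were chosen with earlier results of these data known. All members were named, with inner snoRNA genes of at least 10 mean counts, tested genes starting within 1 kb on the other strand, up to 3 genes of smallest adjusted p from each list, DOT1L and MYC. Overlapping genes named beside them were chosen after their values were seen.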

Additional observations from a re-analysis of the deposited data

Results flagged for a closer look

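Of 104 groups of 4 samples examined among host, inner snoRNA and adjoining genes, 6 held a sample far from the other 3, by a gap that takes more of the range of the group than Dixon's 95% critical value allows. Chance flags about 1 in 20 groups. SNHG3 had its lowest wild-type value in replicate 3, at 174.5 CPM against 182.9 to 184.5 CPM in the others. SNHG10 had its highest wild-type value in the same replicate, at 13.4 CPM against 11.9 to 12.0 CPM. DANCR had its highest knockout value in replicate 5, at 52.5 CPM against 47.0 to 47.8 CPM, and its log2 change without that sample was -0.02 in place of 0.01. SNHG7 had its highest knockout value in replicate 1, at 85.9 CPM against 74.9 to 76.8 CPM. SNORA74A had its highest wild-type value in replicate 5, at 23.7 CPM against 22.3 to 22.5 CPM. SNORA74D had its lowest wild-type value in replicate 2, at 10.2 CPM against 11.1 to 11.2 CPM, which is still above every knockout sample.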

How the results depend on the processing

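Of the 30 tested hosts, 16 kept their call and direction under every alternative that could test them: 11 of 12 lower, 2 of 3 higher and 3 of 15 not passed. The exceptions among the called hosts were SNHG3 and SNHG30. Against 3 higher hosts, library totals gave 6, upper-quartile scaling 8 and the neighbour offset 6. These scalings moved the median of all genes by 0.06 and 0.07 (log2). The replicate block gave 4 higher and 14 lower hosts. It changed the calls of SNHG6, SNHG7, GAS5 and SNORA26. No other call changed among the hosts, inner snoRNA genes and tested genes starting within 1 kb on the other strand. GLRX5, whose exons overlap those of SNHG10 on the other strand, also passed under it (adjusted p = 0.0260, against 0.0533). Relative to neighbours, 2 core proteins, 2 processing factors and 7 of the other long non-coding RNAs were called, against 6, 4 and 11, and upper-quartile scaling called 2 processing factors. Assembly factors called ranged from 4 to 7 with 1 sample left out, the 4 without knockout replicate 3. Hosts ranged from 2 to 4 higher and 12 to 14 lower with 1 sample left out.

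Changes near 0 took the other sign under library totals, upper-quartile scaling and the filter at a mean log2 CPM of 1, in that order, at 0.03, 0.04 and 0.00046 for SNHG10, 0.05, 0.05 and 0.01 for SNHG4, and 0.05, 0.05 and 0.02 for SNORA74A. RPS2 took it at 0.02 under both scalings and relative to neighbours. SNORD104 took it under DESeq2 (-0.01), the lenient filter (-0.01) and limma (-0.0023). With 1 sample left out, log2 changes ran from -0.02 to 0.05 for DANCR, -0.08 to 0.02 for SNHG10, -0.02 to 0.14 for SNORA13, -0.05 to 0.05 for SNORD104, -0.09 to 0.05 for SNORA74A, -0.08 to 0.02 for RPS2 and -0.0043 to 0.05 for TRAF7. Relative to neighbours NOP10 stood at -0.09, TENT4B at 0.03 and AQR at -0.20. The cause was not tested. At 0.0198 to 0.0250 CPM per count, SNHG14, SNHG22 and SNHG31 are too scarce for small changes to be detected. The 0 counts of SNHG28 cannot be read as its level. It shares exons on the same strand with ENSG00000256029, which had 214 counts in wild-type and 376 in knockout samples. Whether reads of SNHG28 were left unassigned was not tested.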
